A study of Mus musculus with 4 samples.

Results

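The contractile and peritubular myoid genes are 35 listed genes of smooth muscle and of the actin cytoskeleton. They were taken from the probe sets of the Affymetrix Mouse 430A array that name 1 gene, with 1 probe set per gene, chosen as brightest by its mean log2 signal over all arrays. This gave 33 measured members among 12393 measured genes; Myh10 and Ppp1r12a had no probe set naming them alone and were not analysed here. The study compared testes of 2 kinds of adult male mice used as hosts for germ cells. XX/Sry males are chromosomally female mice made male by an Sry transgene, and W/Wv males have 2 mutant alleles of Kit, the stem cell factor receptor, and their testes hold few germ cells. The labels describe the W/Wv males as bought animals from a WB and B6 cross. The strain of the XX/Sry males, the promoter driving Sry and how many animals made up a sample are not stated in these sources. Each genotype gave 1 sample of whole testis and 1 of seminiferous tubules, so the 4 groups were XX/Sry whole testis, W/Wv whole testis, XX/Sry tubules and W/Wv tubules, with 1 array each. For tubules, the tunica, the fibrous capsule of the testis, was removed, and collagenase and a strainer took away the cells between the tubules. No group had a replicate, so a fold is a ratio of signals on single arrays.

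Seminiferous tubules are wrapped in peritubular myoid cells, flat contractile cells whose slow contraction moves tubule fluid and sperm and which help to lay down the basement membrane. Like vascular smooth muscle, they contract when calcium and calmodulin activate myosin light chain kinase, which phosphorylates the regulatory light chain so that myosin pulls on actin; RhoA signalling prolongs the contraction by holding back the phosphatase. Serum response factor, SRF, binds a DNA element called the CArG box near many smooth muscle genes and switches them on together with its partner myocardin. Vessel walls and the tunica also hold smooth muscle. In these bulk samples, scaled per array, a lower signal can come from fewer contractile cells relative to other cells or from less RNA per cell. These cannot be told apart, and a lower share of contractile cells need not mean a lower number.

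CArG boxes near the gene starts are shown because SRF, itself a member, acts through them. Of the 35 genes, 29 had a promoter in the RefSeq table (GRCm38.p6), running from 250 bases before to 50 bases after the start of the gene. A CArG box, searched by its full consensus on both strands (a match reads as a match on either strand), lay in the promoter of 6 of these 29 genes, or 20.7%, against 488 of 27025 genes in the table, or 1.81%. The sequences below run 5′ to 3′ on the strand of the gene, and capitals mark the box.
Myl9: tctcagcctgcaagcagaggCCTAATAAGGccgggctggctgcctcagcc
Acta1: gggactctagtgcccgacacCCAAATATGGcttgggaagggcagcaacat
Cnn2: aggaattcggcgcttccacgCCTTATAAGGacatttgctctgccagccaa
Myl6: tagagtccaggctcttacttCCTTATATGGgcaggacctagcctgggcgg
Vcl: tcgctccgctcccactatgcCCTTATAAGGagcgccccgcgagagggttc
Srf: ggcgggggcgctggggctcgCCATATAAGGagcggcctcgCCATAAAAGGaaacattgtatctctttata
The Myl9 stretch is chr2:156775283-156775332 on the plus strand, with the box 161 bases before the gene start. The Acta1 stretch is chr8:123894819-123894868 on the minus strand, with the box at 73 bases. The Cnn2 stretch is chr10:79988524-79988573 on the plus strand, at 56 bases, and the Myl6 stretch is chr10:128493030-128493079 on the minus strand, at 50 bases. The Vcl stretch is chr14:20929151-20929200 on the plus strand, at 227 bases. The Srf stretch is chr17:46556195-46556264 on the minus strand and holds 2 boxes, at 82 and 62 bases. Actg2, Myh11, Rock1, Tagln, Tgfb1i1 and Csrp2 had no promoter in the table. The smooth muscle markers Acta2, Cnn1, Des, Lmod1 and Smtn had a promoter there with no full box. A match describes the letters of the window only, and binding was not measured.

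Arrays were compared before the members. Xist, the RNA of X inactivation, had signals of 3099 in XX/Sry whole testis against 130.6 in W/Wv whole testis, then 1002 in XX/Sry tubules against 76.7 in W/Wv tubules, and for the Y chromosome gene Eif2s3y XX/Sry was lower by at least 10.4-fold in whole testis and 9.51-fold in tubules; all 4 arrays matched their genotype labels. Median signals of all probe sets lay between 156.8 and 182.8. The background bound of an array was its highest signal among 27 control probe sets for bacterial RNA, and it lay between 46.1 and 76.3; 30 of the 33 members (90.9%) lay above it on all 4 arrays, against 65.1% of all genes. The hybridisation spikes, RNAs added in fixed amounts, had a median log2 ratio of -0.66 for XX/Sry over W/Wv tubules and of 0.56 for tubules over whole testis in W/Wv, against -0.13 and 0.00 for the other pairs, so the W/Wv tubule array had brighter spikes. The 3′ to 5′ signal ratio of the beta-actin control lay between 1.42 and 1.85.

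Most of the defining smooth muscle markers were present on all arrays. Of the 8 markers called smooth muscle restricted here, Acta2, Actg2, Myh11, Cnn1, Tagln and Smtn lay above the bound on all 4 arrays, Des on 3 and Lmod1 on 2. The name is loose for Des, which encodes the intermediate filament of muscle in general. Acta1, the actin of skeletal muscle, lay below the bound on all 4 (signals of 11.2 in XX/Sry against 43.3 in W/Wv in whole testis, and of 18.4 in XX/Sry against 33.4 in W/Wv in tubules), and no fold is given for it. Of 14 other skeletal and cardiac muscle markers, 3 lay above the bound on all 4 arrays, and Myh1, Myh2, Myh4, Myl1 and Mb on none; the list summed to between 654.4 and 928.8 per array.

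**Figure D1:**
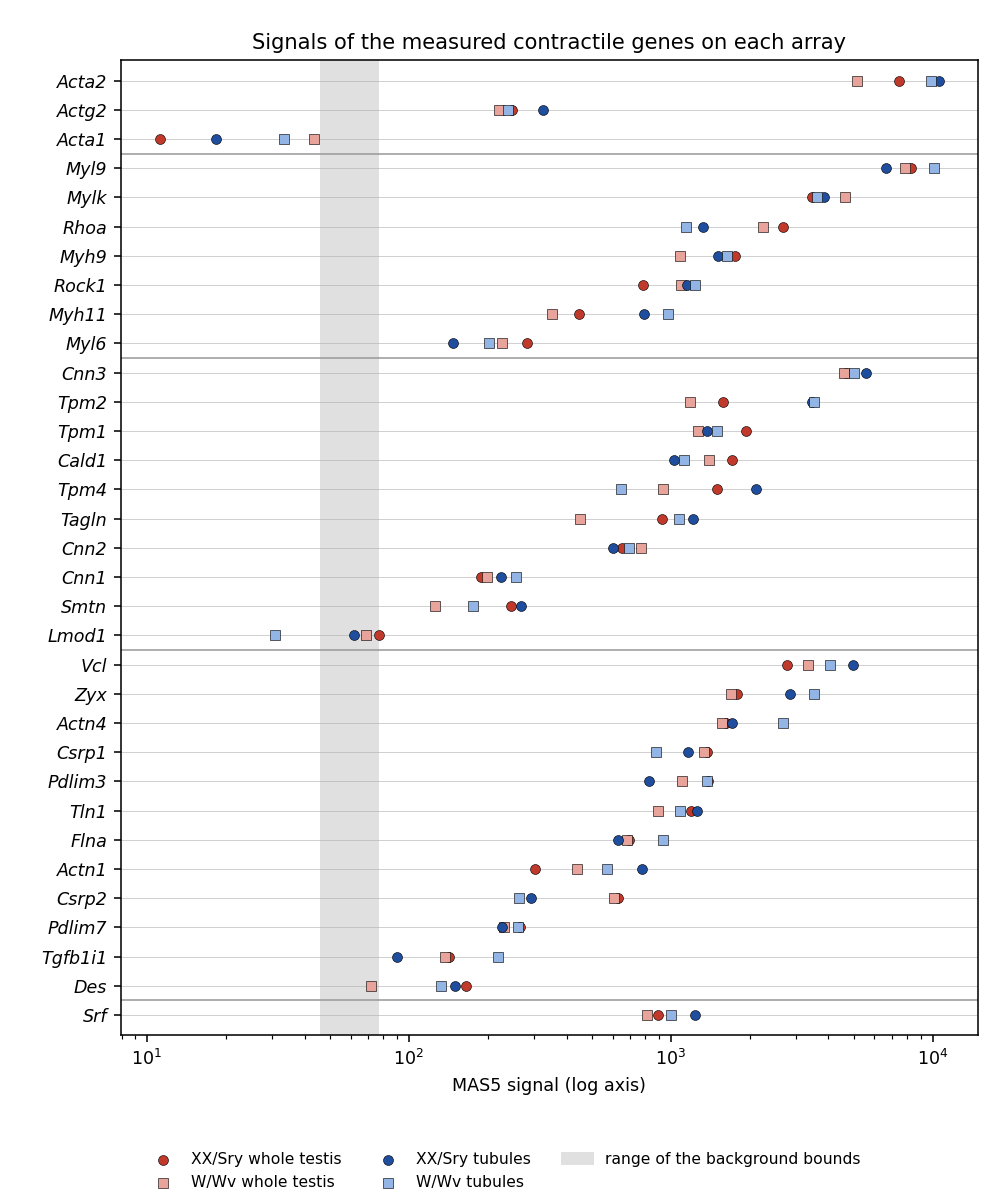
MAS5 signals (log axis) of the 33 measured members, grouped by role from actins at the top to the transcription factor Srf at the bottom, on the 4 arrays (1 point each, no replicates); the grey band is the range of the background bounds, 46.1 to 76.3. Only Acta1 lies below its bound on every array, and signals of different genes are not comparable in level.

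The host genotypes, XX/Sry over W/Wv, were compared first, separately in each preparation. No member was 2-fold or more different the same way in whole testis and in tubules, 0 of 33, where 5.2% of all genes (644 of 12393) passed that rule, 1.98% higher and 3.22% lower. The rule is the one in the series design text. Among genes above the bound on all arrays the background was 1.44%, which in 30 members is less than 1 gene. Among the 30 members above the bound, in whole testis alone 1 was 2-fold higher (Tagln, background 3.55%) and 0 were lower (3.55%). In tubules alone 1 of the 30 was higher (Tpm4, 4.92%) and 1 was lower (Tgfb1i1, 3.27%). In whole testis 26 of 33 members had a ratio above 0, against 43.5% of all genes, and the median log2 ratio of the members was 0.16 against -0.10 for all genes. In tubules 16 of 33 lay above 0, against 49.8% of all genes, with medians of -0.03 for the members and 0.00 for all genes.

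The additive fit of genotype and preparation, tested with limma, called 0 of 33 members for genotype at an adjusted p under 0.05, where 0.15% of all probe sets were called; at an unadjusted p under 0.05 it had 1 member (Tpm4), where 8.74% of all probe sets passed. Without the trend of the prior variance on signal, 0 members and 6.58% of probe sets had an unadjusted p under 0.05. The additive fit has 1 residual degree of freedom per probe set, from the disagreement between the 2 preparations. With the trend, limma combined this with a prior variance from all probe sets, which counted as 9.98 degrees of freedom. The SE and p-values of a gene therefore rest mostly on that prior, and only in small part on its own disagreement. Neither part measures how animals differ, should the same animals have given both preparations.

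Among the actins, Acta2, the alpha-actin of smooth muscle and the usual marker of myoid cells, had a signal of 7449 in XX/Sry whole testis against 5127 in W/Wv whole testis, then 10566 in XX/Sry tubules against 9823 in W/Wv tubules. It was thus 1.45-fold higher in XX/Sry in whole testis and 1.08-fold higher in tubules, with a fitted log2 difference of 0.32 ± 0.28 (SE) and an adjusted p of 0.832 (limma). The Acta2 probe set used is of a type shared between transcripts, and the other Acta2 probe set had 75.5 in XX/Sry whole testis and lay below the bound on the remaining arrays. Actg2, the gamma-actin of visceral smooth muscle, had 248.3 in XX/Sry against 221.6 in W/Wv in whole testis, and 324.3 in XX/Sry against 240.1 in W/Wv in tubules, that is 1.12-fold higher in whole testis and 1.35-fold higher in tubules.

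Of the myosin genes, Myh11, the smooth muscle heavy chain, had 447.1 in XX/Sry whole testis against 350.8 in W/Wv whole testis, with 787.8 in XX/Sry tubules against 974.9 in W/Wv tubules. Myh11 was thus 1.27-fold higher in whole testis of XX/Sry but 1.24-fold lower in their tubules. The myosin group of 7 measured genes, with its light chains and controlling enzymes, had a median log2 ratio of 0.26 for whole testis, against -0.11 for tubules. Myl9, the regulatory light chain of smooth muscle myosin, had 8297 in XX/Sry against 7822 in W/Wv in whole testis, and 6612 in XX/Sry against 10091 in W/Wv in tubules, 1.06-fold higher and 1.53-fold lower. Myh9, the non-muscle heavy chain, was 1.62-fold higher in whole testis of XX/Sry and 1.08-fold lower in their tubules. Mylk, the light chain kinase, had a log2 ratio of -0.41 in whole testis and 0.09 in tubules. Rhoa, a small GTPase, was higher in XX/Sry by 1.19-fold in whole testis and by 1.17-fold in tubules. The direction in tubules rests on the probe set, since a further one had 674.3 in XX/Sry tubules against 1031 in W/Wv tubules, a log2 ratio of -0.61.

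For the 10 thin filament genes the median log2 ratio was 0.35 in whole testis, and in tubules it was 0.07. Tagln, whose product transgelin binds actin in smooth muscle, had 926.4 in XX/Sry whole testis against 450.9 in W/Wv whole testis, with 1215 in XX/Sry tubules against 1072 in W/Wv tubules. It was 2.05-fold higher in XX/Sry in whole testis and 1.13-fold higher in tubules, a fitted log2 difference of 0.61 ± 0.29 (SE) with an adjusted p of 0.588 (limma). The W/Wv whole testis signal of Tagln was the lowest, and the other 3 lay closer together.

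Smtn, smoothelin of contractile smooth muscle, had 245.5 in XX/Sry whole testis against 125.9 in W/Wv whole testis, with 267.9 in XX/Sry tubules against 175.5 in W/Wv tubules, 1.95-fold and 1.53-fold higher. Both XX/Sry signals of Smtn lay above both W/Wv signals, and how many of all genes did so was not counted. Tpm4, a tropomyosin of non-muscle cells, had 1503 in XX/Sry against 930.4 in W/Wv in whole testis, and 2119 in XX/Sry against 644.7 in W/Wv in tubules, 1.62-fold and 3.29-fold higher. It also had both XX/Sry signals above both W/Wv signals, and its fitted log2 difference of 1.20 ± 0.29 (SE) had an unadjusted p of 0.00159 and an adjusted p of 0.182 (limma), so it did not pass. Cnn1, calponin of smooth muscle, had 189.2 in XX/Sry against 198.1 in W/Wv in whole testis, and 225.0 in XX/Sry against 255.8 in W/Wv in tubules; its log2 ratio in whole testis, -0.07, became 0.02 with arrays centred on their medians. Lmod1, leiomodin of smooth muscle, had 77.1 in XX/Sry against 68.3 in W/Wv in whole testis, and 61.8 in XX/Sry against 30.9 in W/Wv in tubules, close to the bounds or below them.

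Among the 12 genes of filaments, crosslinks and adhesions, Des, desmin, the intermediate filament of muscle, had 165.8 in XX/Sry whole testis against 71.7 in W/Wv whole testis. The W/Wv signal was under its bound, and by this probe set Des was at least 2.17-fold higher in XX/Sry there. A further Des probe set, above the bound on all 4 arrays, had 159.0 in XX/Sry against 98.7 in W/Wv in whole testis, a smaller log2 ratio of 0.69. In tubules Des had 150.0 in XX/Sry and 132.5 in W/Wv, 1.13-fold higher. Flna, filamin A, the only member on the X chromosome, had 696.0 in XX/Sry against 682.7 in W/Wv in whole testis, and 627.7 in XX/Sry against 935.4 in W/Wv in tubules, with a log2 ratio of 0.03 in whole testis against -0.58 in tubules. The group median was 0.05 in whole testis, and -0.03 for tubules. Srf had 892.5 in XX/Sry against 810.5 in W/Wv in whole testis, and 1236 in XX/Sry against 1002 in W/Wv in tubules, ratios of 1.10-fold and 1.23-fold. Its further probe set had a log2 ratio of -1.13 in whole testis, but 0.61 in tubules.

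**Figure D2:**
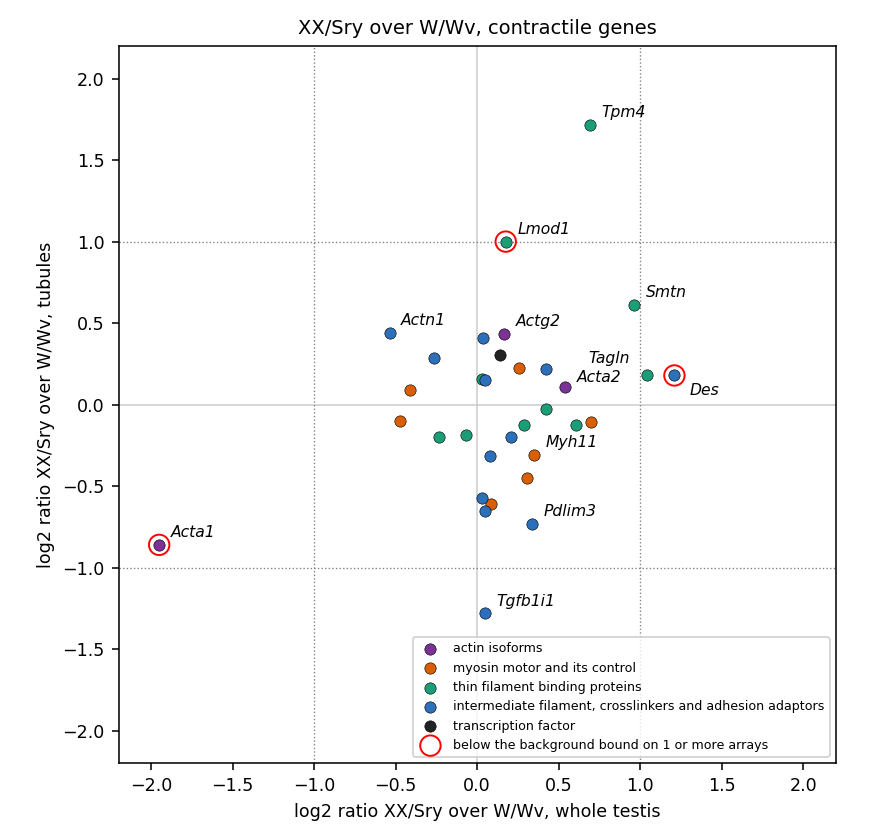
Log2 ratio of XX/Sry over W/Wv in whole testis (x axis) and in tubules (y axis) for the 33 members, coloured by role; dotted lines mark 2-fold and red rings mark members below the background bound on 1 or more arrays. No point lies beyond 2-fold the same way on both axes, and most points (26 of 33) lie right of 0 in whole testis.

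Within the smooth muscle restricted markers the W/Wv whole testis array stood apart. It gave the lowest of the 4 signals for 6 of these 8 genes and for 14 of the 33 members (42.4%), against 19.5% of all genes and 21.2% of genes above the bound on all arrays. The 8 markers had a median log2 ratio of 0.44 for XX/Sry over W/Wv in whole testis and of 0.18 in tubules, against 0.08 and -0.11 for the other 25 members. Markers of several other cells also differed between the genotypes in whole testis. The 8 germ cell markers summed to 911.3 in XX/Sry against 5184.5 in W/Wv in whole testis, and to 899.4 in XX/Sry against 931.7 in W/Wv in tubules. For XX/Sry over W/Wv in whole testis, 6 of 6 Leydig cell markers had a log2 ratio above 0 (median 0.80), as did 6 of 8 macrophage markers (0.45) and 6 of 10 endothelial markers (0.36). Endothelial markers, 7 of 10 above the bound on all arrays, summed to 1925.0 in XX/Sry against 1332.6 in W/Wv in whole testis. In tubules the same ratio had a median of 1.46 for Leydig cell markers, with 6 of 6 above 0. The tubule medians were -0.44 for macrophage and 0.09 for endothelial markers. Of 10 Sertoli cell markers 5 lay above 0 in whole testis, with a median of 0.08. Of 8 pericyte markers, of which 4 lay above the bound on all arrays, 3 had a ratio above 0, with a median of -0.24 that became 0.05 after quantile normalisation. The part of these cells in the ratios of the contractile genes was not tested.

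The other comparison set tubules, without the capsule and the cells between tubules, against whole testis within each genotype. The W/Wv pair differed in more than these removed parts. Its 8 germ cell markers summed to 931.7 in W/Wv tubules against 5184.5 in W/Wv whole testis, and all 8 were at least 2-fold lower in tubules. In XX/Sry they summed to 899.4 in tubules against 911.3 in whole testis. The part of this difference in the members' ratios was not tested. By the 2-fold rule in both genotypes, 1 member was higher in tubules (Tpm2) and 1 lower (Csrp2), where 1.32% of all genes were higher and 5.74% lower. The count of 2 in 33 is near the background of 7.05% in either direction (3.48% of genes above the bound on all arrays). Among the 30 members above the bound, in XX/Sry alone Tpm2 and Actn1 were 2-fold higher (background 4.35%) and Rhoa and Csrp2 lower (7.03%). In W/Wv alone Myh11, Tagln, Tpm2 and Zyx were higher (4.4%) and Csrp2 lower (8.18%). In XX/Sry 18 of 33 members had a ratio above 0, against 48.9% of all genes, with medians of 0.08 for the members and -0.02 for all genes. In W/Wv 23 of 33 did, against 41.5%, with medians of 0.29 and -0.15.

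Tpm2, beta-tropomyosin, which lies along actin in slow and smooth muscle, had 3463 in XX/Sry tubules against 1586 in XX/Sry whole testis, and 3524 in W/Wv tubules against 1182 in W/Wv whole testis. It was 2.18-fold and 2.98-fold higher in tubules. Its fitted log2 difference was 1.35 ± 0.25 (SE) with an adjusted p of 0.0268 (limma), the 1 member of 33 called for preparation, where 1.22% of all probe sets were called; 8 members had an unadjusted p under 0.05, as did 13.9% of all probe sets. Under other scalings or an added constant the adjusted p lay between 0.0184 and 0.0359, but without the trend of the prior variance on signal it was 0.57 and 0 of 22626 probe sets were called, 8.67% having an unadjusted p under 0.05. The call also rests on the probe set used. A further Tpm2 probe set had 708.6 in XX/Sry tubules against 682.1 in XX/Sry whole testis and 1218 in W/Wv tubules against 398.3 in W/Wv whole testis, log2 ratios of 0.06 and 1.61.

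Csrp2, a LIM-only protein of smooth muscle and of other mesenchymal cells, had 291.9 in XX/Sry tubules against 627.2 in XX/Sry whole testis, and 263.0 in W/Wv tubules against 605.7 in W/Wv whole testis. It was 2.15-fold and 2.30-fold lower in tubules. The fitted log2 difference of -1.15 ± 0.30 (SE) had an adjusted p of 0.109 (limma). Rhoa lay just outside the 2-fold rule, with 1332 in XX/Sry tubules against 2689 in XX/Sry whole testis and 1139 in W/Wv tubules against 2251 in W/Wv whole testis, 2.02-fold and 1.98-fold lower (adjusted p = 0.081, limma). A further Rhoa probe set had log2 ratios of -0.96 in XX/Sry and 0.02 in W/Wv.

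Most of the smooth muscle restricted markers were brighter in tubules. Of the 8, 6 had a ratio above 0 in XX/Sry and 7 in W/Wv, with median log2 ratios of 0.32 and 0.68, against medians of -0.11 and 0.23 for the other 25 members; 0 of the 8 passed 2-fold in both. By the signals given above, Myh11 was 1.76-fold higher in tubules of XX/Sry and 2.78-fold higher in those of W/Wv (adjusted p = 0.0997, limma). Acta2 was 1.42-fold and 1.92-fold higher, Tagln 1.31-fold and 2.38-fold, Cnn1 1.19-fold and 1.29-fold, Actg2 1.31-fold and 1.08-fold, and Smtn 1.09-fold and 1.39-fold. The Acta2 direction rests on its bright probe set: the other one, under the bound in both tubule samples, had log2 ratios of -1.51 in XX/Sry and -0.97 in W/Wv, and the mean of both probe sets gave -0.50 and -0.0137. Des was 1.11-fold lower in XX/Sry tubules and at least 1.74-fold higher in W/Wv tubules, and its further probe set had log2 ratios of -0.78 and -0.34. Lmod1 was 1.25-fold lower in XX/Sry tubules.

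Of the 12 genes of filaments, crosslinks and adhesions, 5 had a ratio of tubules over whole testis above 0 in XX/Sry (median -0.15 on the log2 scale) and 10 in W/Wv (0.35). Zyx, zyxin of focal adhesions, had 2843 in XX/Sry tubules against 1793 in XX/Sry whole testis, and 3536 in W/Wv tubules against 1701 in W/Wv whole testis, 1.59-fold and 2.08-fold higher; its further probe set had log2 ratios of 0.73 and 1.21. Vcl, vinculin, which links adhesions to actin, was 1.79-fold and 1.22-fold higher, and Actn1, the crosslinker alpha-actinin, 2.56-fold and 1.30-fold higher. Csrp1, a LIM protein close to Csrp2, was 1.18-fold and 1.54-fold lower. Its further probe set had log2 ratios of -0.93 in XX/Sry and 0.10 in W/Wv. Of the thin filament genes, Cald1, caldesmon, which holds back actin-activated myosin, was 1.66-fold and 1.25-fold lower. Its further probe sets had log2 ratios of -0.60 and -0.57 in XX/Sry, but of 0.65 and -0.24 in W/Wv. The direction in W/Wv thus rests on the probe set for both Csrp1 and Cald1.

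**Figure D3:**
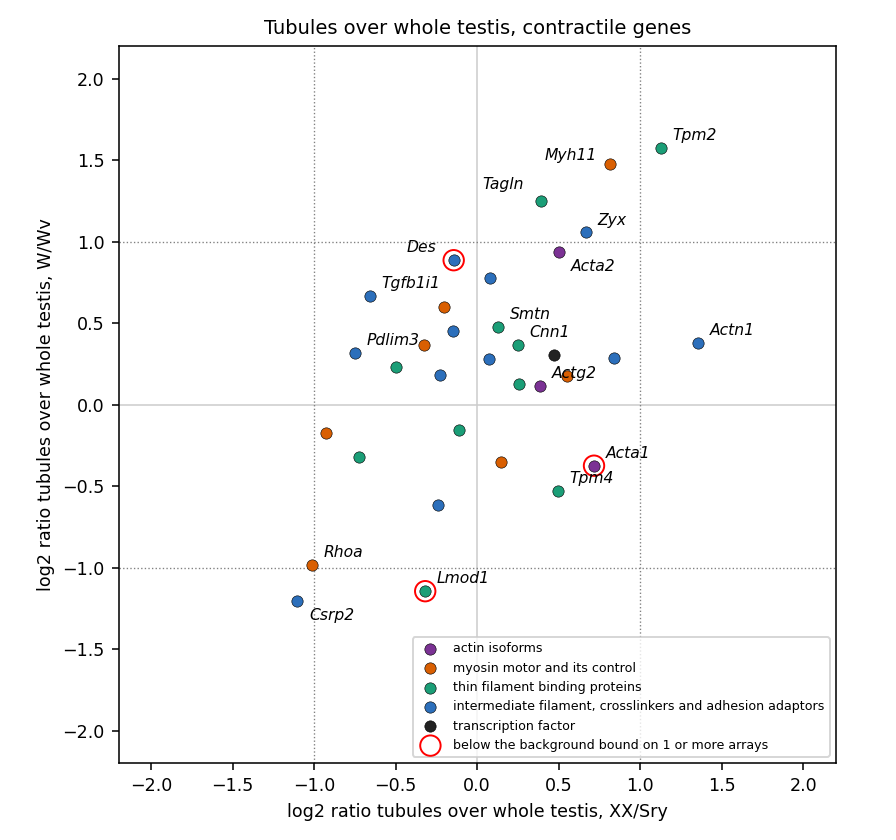
Log2 ratio of tubules over whole testis in XX/Sry (x axis) and in W/Wv (y axis) for the 33 members, coloured by role; dotted lines mark 2-fold and red rings mark members below the background bound on 1 or more arrays. Tpm2 is the 1 member past 2-fold on both axes at the upper right, and Csrp2 the 1 at the lower left, with Rhoa at the line.

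Markers of other cells give the scale of the preparation comparison. Of 6 Leydig cell markers, the steroid-making cells between tubules, 5 were 2-fold lower in tubules of both genotypes, with median log2 ratios of -1.44 in XX/Sry and -2.37 in W/Wv, among them Cyp17a1, Hsd3b1, Cyp11a1 and Star. Their summed signal was 23012 in XX/Sry tubules against 59936 in XX/Sry whole testis, and 9204 in W/Wv tubules against 36886.5 in W/Wv whole testis. Of 8 macrophage markers all had ratios below 0 and 7 were 2-fold lower in both genotypes, among them Csf1r, C1qb, C1qa and C1qc, with medians of -2.53 and -1.59. Sertoli cell markers, of the cells inside the tubule, had medians of 0.23 and 0.78. Those of 10 endothelial genes were 0.45 and 0.42, and those of 8 pericyte genes 0.15 and 0.37, so neither list had a median below 0. Only 7 of these endothelial genes and 4 of these pericyte genes lay above the bound on all 4 arrays. Vessel smooth muscle and myoid cells share these contractile genes, and the part of vessels in the members' signals was not tested.

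**Figure D4:**
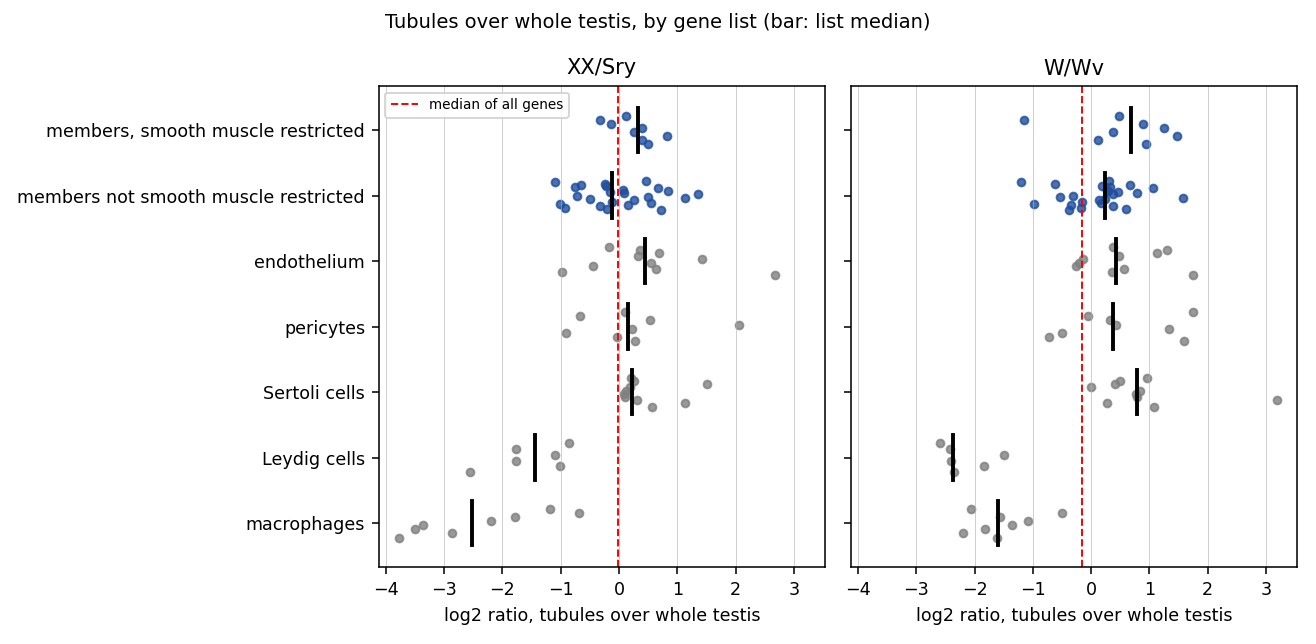
Log2 ratio of tubules over whole testis in XX/Sry (left) and W/Wv (right), 1 point per gene (blue: contractile genes, grey: markers of other cells), black bars the list medians and the red dashed line the median of all genes. Leydig cell and macrophage genes lie left of 0, with medians from -1.44 to -2.53, while the smooth muscle restricted markers have medians of 0.32 and 0.68.

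The genotype ratio differed between the preparations for some members. A double ratio, the log2 ratio in tubules minus that in whole testis, was at least 1 in size for 5 members (15.2%), against 31% of all genes; for members above the bound on all arrays it was 3 of 30, against 14.4%. It has no residual in this design and was not tested. Its median over the members was -0.35, against 0.10 for all genes. Tgfb1i1, Hic-5 of focal adhesions, had 142.4 in XX/Sry whole testis against 137.9 in W/Wv whole testis, with 90.1 in XX/Sry tubules against 218.9 in W/Wv tubules, a double ratio of -1.33. Pdlim3, a PDZ and LIM protein that binds alpha-actinin, had 1393 in XX/Sry against 1105 in W/Wv in whole testis, and 826.9 in XX/Sry against 1375 in W/Wv in tubules, a double ratio of -1.07. Tpm4, described above, had a double ratio of 1.02. Those of Des, -1.03, and Acta1, 1.09, rest on signals under the bound.

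Probe sets of the same gene often differed. For 14 members with more than 1 probe set above the bound on all arrays, all probe sets had the same sign of the XX/Sry over W/Wv ratio for 8 genes in whole testis and for 5 in tubules. Tubules over whole testis had the same sign for 12 of 14 genes in XX/Sry and for 4 of 14 in W/Wv. Mylk had the widest span of the 14 in whole testis, with log2 ratios of XX/Sry over W/Wv from -0.41 to 1.498, and in tubules it ran from -0.90 to 0.09 in tubules. Tpm1, alpha-tropomyosin, ran from -0.10 to 1.43 in whole testis. For Vcl both probe sets gave close values, -0.27 and -0.26 in whole testis and 0.28 and 0.20 in tubules.

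**Figure D5:**
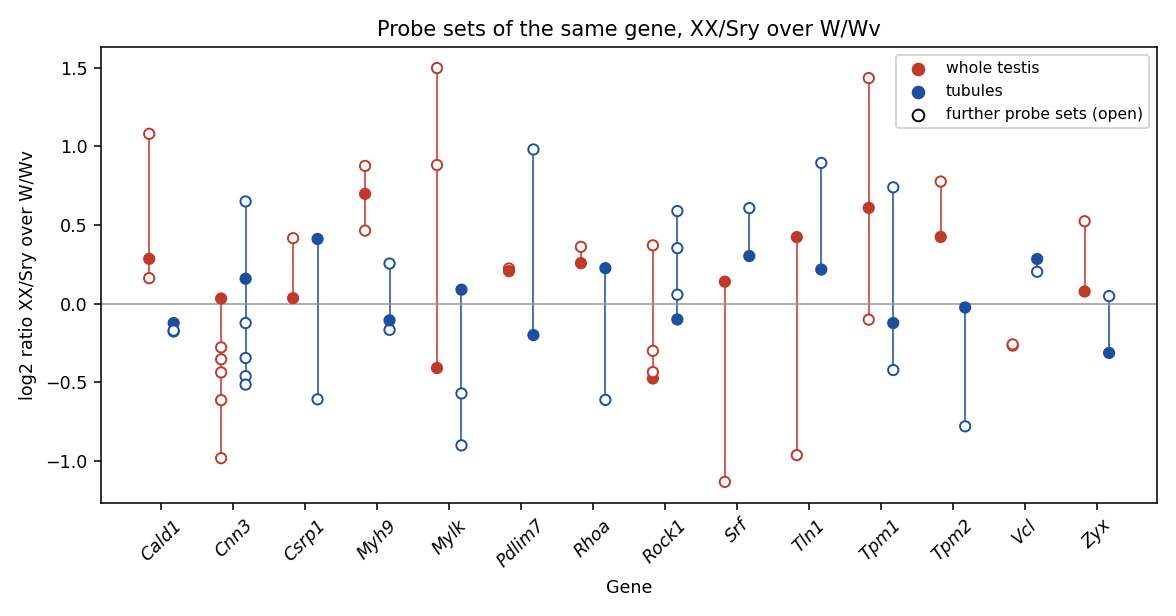
Log2 ratio of XX/Sry over W/Wv for every probe set above the background bound on all arrays of the 14 members with more than 1 such probe set, in whole testis (red) and tubules (blue); filled points are the probe sets used and open points the others. Mylk spans -0.41 to 1.498 in whole testis and Vcl only -0.27 to -0.26.

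Other genes of contraction were read from 3 further lists. Of 18 measured smooth muscle structural and SRF target genes outside the members, none above the bound on all arrays was 2-fold different in both preparations. Csrp3 and Itga8 had signal ratios past 2-fold, but W/Wv signals of Csrp3 lay under the bound, which leaves lower limits of 1.74-fold in whole testis and 1.49-fold in tubules for its higher signal in XX/Sry. Itga8 lay above its bound on 1 array and has no fold. In 15 further genes that control contraction, such as those of calcium and cyclic GMP, none passed for genotype, and 1 was lower in tubules of both genotypes. That gene, Ppp1r14a, encodes CPI-17, an inhibitor of the myosin phosphatase; it had 331.3 in XX/Sry tubules against 1175 in XX/Sry whole testis, and 250 in W/Wv tubules against 1450 in W/Wv whole testis, 3.55-fold and 5.80-fold lower. Of 7 receptors and ligands that contract tubules, 1 was lower in XX/Sry in both preparations. Edn1, which encodes the constrictor peptide endothelin-1, had 219.0 in XX/Sry whole testis against 622.4 in W/Wv whole testis, with 431.9 in XX/Sry tubules against 918.4 in W/Wv tubules, 2.84-fold and 2.13-fold lower. Avpr1a, a vasopressin receptor, was above its bound on all arrays and did not pass, with 268.8 in XX/Sry against 203.6 in W/Wv in whole testis, and 141.8 in XX/Sry against 119.4 in W/Wv in tubules.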

How the data were processed

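The deposited values are array intensity: the authors calculated 1 MAS5 signal per probe set, on a linear scale, per the submitters' processing notes and the design text. The mean signal without the lowest and highest 2% of probe sets was 499.9 on all arrays, which shows a scaling per array. Of 22690 probe sets, 64 controls were set aside; the platform annotation gave 1 symbol to 20380, several to 691 and none here to 1555. No column of values was unused. Ratios were taken from the deposited signals as they stand. A dimmer signal under its background bound gives only a lower limit of the fold, computed with the larger of both arrays' bounds in its place.

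The additive fit used limma 3.58.1 in R 4.3.3 (log2 signals, trend on mean signal, Benjamini-Hochberg over 22626 probe sets, two-sided). In tests on simulated data its false calls often exceeded the nominal share, so its adjusted p-values understate the error. Precision is limited by having 1 array per group.

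Members, lists, roles and comparisons were chosen with earlier results of these data known. Signals in every group are given for the 8 smooth muscle restricted markers, for members past 2-fold in both pairs, with a double ratio of at least 1 or called in the fit; other members, and Avpr1a, whose signals are given were chosen after their values were seen. Promoters were matched by symbol to a RefSeq table. Alternatives were other scalings, an added constant, other choices of probe set, a filter on dim genes and a fit without trend.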

Additional observations from a re-analysis of the deposited data

Results flagged for a closer look

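The 3 members above the background bound on all arrays listed here ran in opposite directions in the groups compared, with a double ratio of at least 1 on the log2 scale. They are 3 of 30 such members (10%), where 14.4% of all genes above the bound had a double ratio of that size. None of these differences was tested. Tgfb1i1 (double ratio -1.33) had a log2 ratio of XX/Sry over W/Wv of 0.05 in whole testis, nearly equal signals, against -1.28 in tubules. Its log2 ratio of tubules over whole testis was -0.66 in XX/Sry and 0.67 in W/Wv. Pdlim3 (double ratio -1.07) had 0.33 and -0.73 for genotype, and -0.75 and 0.32 for preparation. Tpm4 (double ratio 1.02) was higher in XX/Sry in both preparations, but its tubules over whole testis ratio was 0.50 in XX/Sry and -0.53 in W/Wv.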

How the results depend on the processing

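No paired analysis was possible because each group had 1 array and the labels give no replicate numbers; the additive fit takes genotype and preparation as blocks of each other. The genotype count of 0 members was 0 under all 6 alternatives, and 0 members were called for genotype in the fit under its 4. The share of all genes past the genotype rule was 5.27% after centring, 4.91% after quantile normalisation and 0.88% with a constant of 50. In the fit, the share of all probe sets called for genotype was at most 0.336%. It was 0 without the trend, where no member could be called. The count of 2 for preparation became 1 with arrays centred on their medians and with a constant of 50 (Tpm2). It became 1 with probe sets averaged per gene or taken from types not shared (Csrp2). It was 3 after quantile normalisation (Rhoa, Tpm2 and Csrp2). The share of all genes past the preparation rule was 6.61% after centring, 2.23% with the constant and 6.11% after quantile normalisation. With probe sets of types not shared, the Tpm2 log2 ratio of tubules over whole testis in XX/Sry turned to -0.0286. The preparation call of the fit was 0 without the trend. The count of 5 double ratios became 3 after centring, 1 with the constant and 3 over genes above the bound on all arrays. It was 4 after quantile normalisation, and 7 both with probe sets averaged and with types not shared. The share of all genes was 30.8% after centring, 30.4% after quantile normalisation and 14.4% over genes above the bound on all arrays.

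The median log2 ratio of members for tubules over whole testis became 0.19 in XX/Sry and 0.51 in W/Wv after centring (all genes 0.09 and 0.07), -0.054 and 0.12 with probe sets averaged, and -0.0286 and 0.18 without shared probe sets. For XX/Sry over W/Wv in tubules it became -0.13 with the mean of all probe sets. In whole testis that median lay between 0.13 and 0.25 under the 6 alternatives, and the number of members with a ratio above 0 between 24 and 27, a count added after seeing the data. The cause of these shifts was not tested beyond the fewer genes or other probe sets used. A median is said to have moved when it changed by over 0.1.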
